A study of Mus musculus with 4 samples.

Results

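Zfp352, Tmem92, Sp110, Spz1, AF067061 and B020004J07Rik are 6 of the 25239 gene symbols in the count tables. They were listed by name as markers of the 2-cell-like state that lie outside the large tandem gene families, and some of them were picked because they were higher after loss of Ogt in these same libraries. Their difference between the groups is therefore given as a description, with no test, and the rule holds no threshold. The libraries were made from polyadenylated RNA of mouse embryonic stem cells (mESC) of genotype Ogt fl/fl, in which the gene for O-GlcNAc transferase can be deleted by a recombinase that the labels do not name. The Ogt iKO group held 2 libraries from cells given 4-hydroxytamoxifen (4-OHT) for 6 days, and the control group held 2 libraries from the same genotype grown without 4-OHT. All cells were grown on mitomycin C-treated embryonic fibroblasts in medium with LIF and serum replacement, and viable cells were separated from these feeders by sorting with antibodies to CD90.2 and CD326. The labels give CD90.2 as the marker that picks out the stem cells and CD326 as the one that removes feeders, although CD90 is the product of Thy1, a fibroblast marker here, and CD326 that of Epcam, a stem cell marker here. The treated cells were in addition selected for yellow fluorescent protein, a step not described for the controls, so treatment and that selection cannot be told apart. The labels do not say whether the 2 libraries of a group came from separate cultures or clones, so p-values measure the spread between these libraries, which may be technical.

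The 2-cell-like state is a rare and passing condition of cultured mESC in which genes of the early mouse embryo, at the time its own genome is first switched on, are transcribed again together with the endogenous retrovirus MERVL. The transcription factor DUX can start the programme, Zscan4 genes mark cells that enter it, and chromatin regulators such as the CAF-1 histone chaperone and repressors that act with TRIM28 hold it silent in most cells. Many genes of the programme are transcribed from long terminal repeats of retroviruses near their start sites.

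Each library held between 14668489 and 16504204 counts. A gene with 0 counts could have been present at up to 3 counts, or 0.175 to 0.196 counts per 1000000 counts (CPM, on TMM-scaled library sizes), which covers counting error only. Ogt, the check of the labels, counted 437 and 389 in the Ogt iKO libraries and 2963 and 3108 in the controls, and it fell by 2.96 on the log2 scale (SE 0.0676, adjusted p = 2.486e-07 by edgeR's quasi-likelihood test). Of 14525 genes with enough counts to test, the call at an adjusted p under 0.05 was higher in Ogt iKO for 33.2% and lower for 32.0%, and 42.3% had both Ogt iKO libraries above both controls. Scaled by library totals alone, 65.1% of the calls were higher in place of 50.9%, and the all-gene median (log2) moved from 0.02 to 0.19. The stem cell label was checked against 16 mESC markers, all tested, of which 15 fell, 0 rose and 1 was not called. Their median log2 fold change was -0.73, against the all-gene median of 0.02, and Nanog and Sox2, core pluripotency factors, were at 87.8 ± 4.64 and 127 ± 6.30 CPM in Ogt iKO (SD, n = 2). In control Nanog and Sox2 were at 242.3 ± 3.695 and 382.5 ± 14.77 CPM. The largest falls among these markers were those of Prdm14 (log2 fold change -2.74) and Klf4 (-1.82). In bulk RNA, a change in the number of cells of a type and a change in RNA per cell cannot be told apart.

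The sequence before the annotated transcription start is shown for Zfp352, Sp110, AF067061, B020004J07Rik and Spz1, because 4 of these 5 genes share an ordered set of short motifs there and Spz1 does not. RefSeq (GRCm38.p6) windows, from 250 bases before to 50 after a start, were at hand for 5 of the 6 genes. There were 6 windows in all because Sp110 had windows for 2 starts, and B020004J07Rik was matched through its RefSeq name Pramel17. Both Sp110 starts, called first and second here, lie inside the span of the gene. Its 5′ end, base 85610850 of chromosome 1, had no window and was not examined. Only the 250 bases before the start are printed, 5′ to 3′ on the transcribed strand. Capitals mark a first motif, CTTTAAT, a second motif, GCTGGAG, and a TATA motif, TATAAG, where they lie on the transcribed strand. The sequences lie at chr4:90218570-90218819 on the plus strand for Zfp352, at chr1:85603892-85604141 on the minus strand for the first start of Sp110, at chr13:120262845-120263094 on the plus strand for AF067061, at chr4:101844023-101844272 on the minus strand for B020004J07Rik and at chr13:92576233-92576482 on the minus strand for Spz1.
Zfp352: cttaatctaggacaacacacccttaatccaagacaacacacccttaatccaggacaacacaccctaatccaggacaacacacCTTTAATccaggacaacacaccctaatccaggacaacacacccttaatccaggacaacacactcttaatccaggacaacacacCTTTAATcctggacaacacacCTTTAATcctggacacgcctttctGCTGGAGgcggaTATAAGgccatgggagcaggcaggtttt
Sp110 (first start): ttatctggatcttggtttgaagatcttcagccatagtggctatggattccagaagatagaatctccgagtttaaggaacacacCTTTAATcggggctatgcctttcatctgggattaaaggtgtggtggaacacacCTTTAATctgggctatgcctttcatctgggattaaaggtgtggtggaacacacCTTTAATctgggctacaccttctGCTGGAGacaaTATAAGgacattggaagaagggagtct
AF067061: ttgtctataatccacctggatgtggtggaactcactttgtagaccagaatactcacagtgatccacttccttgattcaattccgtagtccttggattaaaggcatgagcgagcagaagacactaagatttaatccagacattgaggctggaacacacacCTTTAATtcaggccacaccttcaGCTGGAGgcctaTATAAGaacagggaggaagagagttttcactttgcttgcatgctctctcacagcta
B020004J07Rik: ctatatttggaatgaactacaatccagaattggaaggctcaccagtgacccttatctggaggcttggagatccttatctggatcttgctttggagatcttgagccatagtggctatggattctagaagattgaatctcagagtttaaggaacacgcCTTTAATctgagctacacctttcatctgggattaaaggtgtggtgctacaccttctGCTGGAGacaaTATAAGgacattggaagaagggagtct
Spz1: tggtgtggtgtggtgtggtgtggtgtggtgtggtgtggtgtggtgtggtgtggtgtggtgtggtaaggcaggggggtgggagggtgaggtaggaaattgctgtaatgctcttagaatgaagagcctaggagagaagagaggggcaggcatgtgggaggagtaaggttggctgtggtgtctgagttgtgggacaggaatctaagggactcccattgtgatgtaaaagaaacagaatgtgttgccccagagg

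The first motif, the second motif and the TATA motif followed each other in that order on the transcribed strand in 4 of the 6 windows, those of Zfp352, the first start of Sp110, AF067061 and B020004J07Rik. The second start of Sp110 and the start of Spz1 had none of the 3 motifs on either strand. The motifs were chosen by reading these windows, so their presence there is a description and no test was made. Over all 32851 windows of the same length, the ordered set was present in 26, or 0.0792%. Searched singly on both strands, CTTTAAT was in 3.80% of windows, GCTGGAG in 11.6% and TATAAG in 7.43%. The 3 motifs share no letters at their matches in these windows.

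TATAAG, which holds the letters of a TATA box, began 28 bases before the start in Zfp352, 27 before in Sp110, 27 before in B020004J07Rik and 56 before in AF067061. GCTGGAG began 40, 38, 38 and 68 bases before the start in the same order of genes. The spacing between these 2 motifs was thus nearly constant while the pair lay farther from the annotated start in AF067061. On the transcribed strand CTTTAAT occurred 3 times in Zfp352, 3 times at the first start of Sp110 and once in each of the other 2 windows. On both strands together it occurred 3 times in Zfp352, 5 times at the first start of Sp110 and 2 times each in AF067061 and B020004J07Rik, and the other motifs had no match on the other strand. Of the windows, 4 pairs aligned to each other, with only the best alignment of each pair kept. The first start of Sp110 and B020004J07Rik aligned over 134 bases at 90.3% identity, from -250 to -117 in Sp110 and from -177 to -44 in B020004J07Rik. That stretch holds neither GCTGGAG nor TATAAG. The printed sequences of Sp110 and B020004J07Rik are also identical from GCTGGAG to the start. Sp110 and AF067061 aligned over 66 bases at 80.3%, Sp110 and Zfp352 over 58 bases at 81.0%, and Zfp352 and AF067061 over 65 bases at 80%. A pair of short sites of the kind DUX binds, TGATT and AATCA with 1 base between them, was in 0.0335% of all windows and in none of these 6, which says only that these letters are not in the windows. No annotation of repeats was used, so the windows are not assigned to a repeat family, and gene counts do not tell which start was used.

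**Figure D1:**
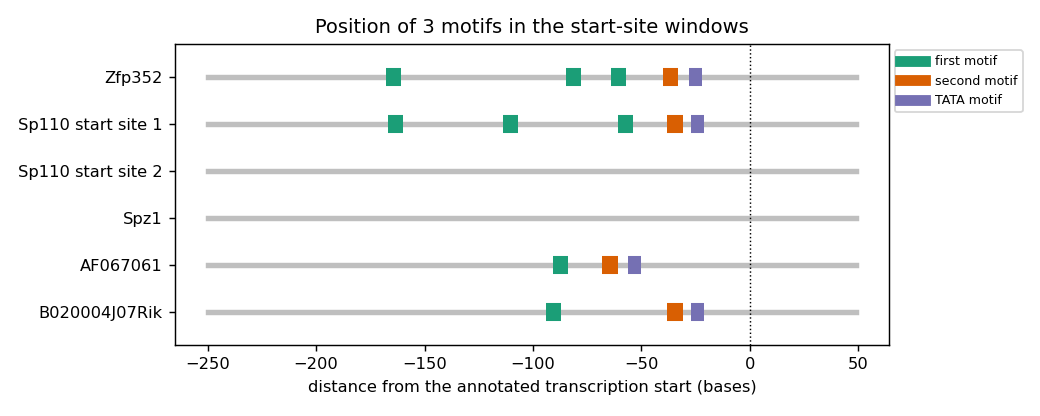
Positions of the 3 motifs in the 6 start-site windows, with the distance from the annotated transcription start in bases on the x axis and 1 grey line per window. The first motif is CTTTAAT, the second GCTGGAG and the TATA motif TATAAG. 4 windows carry all 3 in that order, and the second motif and the TATA motif of AF067061 lie farther from the start than those of the other 3 windows.

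CpG dinucleotides, the sites of DNA methylation in mammals, were counted in the 6 windows. Zfp352 and AF067061 had 2 each, B020004J07Rik 3, Sp110 3 at its first and 5 at its second start, and Spz1 had 0. The median over all windows was 7, and the share of all windows with no more CpG than the window in question was 5.43% for Spz1, 23.3% for Zfp352 and AF067061, 31.4% for B020004J07Rik and the first start of Sp110, and 43.6% for the second start of Sp110. GC content ranged from 44% in AF067061 to 55% at the second start of Sp110, around a median of 52.7% for all windows. The ratio of observed to expected CpG was between 0 and 0.22, below the median of 0.384.

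The ordered motif set marked 21 other genes, of which 16 were in the count tables, and 9 of these were listed at 0 in all 4 libraries. Of the 3 with enough counts to test, Eif4a3l1, a relative of an RNA helicase of the exon junction complex, had 119 and 116 counts in Ogt iKO, compared with 30 and 30 in control and rose by 1.89 (log2, SE 0.206, adjusted p = 8.07e-05). LOC105246046 had 208 and 218 counts against 54 and 31 and rose by 2.25 (log2, SE 0.243, adjusted p = 7.718e-05). Pemt, an enzyme of phosphatidylcholine synthesis, had 44 and 59 counts against 74 and 64 and was not called (log2 fold change -0.49, adjusted p = 0.1093), but without Ogt iKO replicate 2 it was called lower (-0.82, adjusted p = 0.01751). A wider set, the 31 other genes whose window aligned to a member's window at 80% identity or more over at least 100 bases, had 8 tested genes, of which 4 rose, 2 fell and 2 were not called. Sgk1, a kinase, was among those that fell, from 4028 and 3968 counts in control to 1552 and 1650 in Ogt iKO. The other gene that fell was 2310039L15Rik, a call lost with DESeq2 (adjusted p = 0.09227) and without control replicate 2 (0.05849). At a stricter limit of 85% identity over at least 200 bases, 3 genes were tested, of which 2 rose, 0 fell and 1 was not called, and at a looser limit of 75% over at least 50 bases, 11 were tested, of which 7 rose, 2 fell and 2 were not called. Over all tested genes 33.2% were called higher and 32.0% lower, and these sets are too small to be read against those shares. How the counting treated reads shared between near-identical genes is not stated.

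All 6 genes had both Ogt iKO libraries above both controls. Among all tested genes 42.3% did so, but nothing is read from that contrast because the genes were partly chosen for it. Their summed level was 25.7 and 30.8 CPM in the Ogt iKO libraries and 4.91 and 3.72 CPM in the controls. Tmem92 gave 65.8% and 64.9% of the summed counts in control and 43.3% and 37.1% in Ogt iKO, and B020004J07Rik gave 19.7% and 17.5% in control and 29.4% and 25.8% in Ogt iKO. Of the 6 genes, 5 had enough counts for the fit over all genes, and their fitted log2 fold changes ran from 1.99 to 6.50 with a median of 3.24. Sp110 did not pass the filter on low counts.

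**Figure D2:**
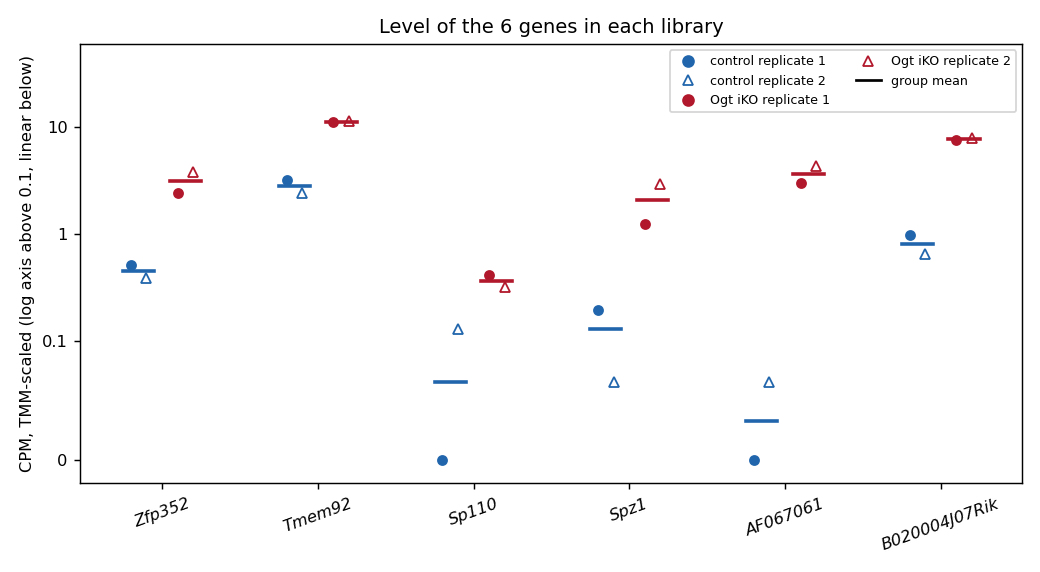
Level of each of the 6 genes in each library, in CPM on TMM-scaled library sizes, on an axis that is logarithmic above 0.1 and linear below. Circles are replicate 1, triangles replicate 2, blue control, red Ogt iKO and bars the group means. The red symbols lie above the blue ones for every gene, and AF067061 and Sp110 have a control library at 0.

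Zfp352 encodes a zinc-finger protein of the early embryo. It had 41 and 59 counts in Ogt iKO and 8 and 6 in control, or 3.10 ± 0.994 against 0.454 ± 0.0889 CPM. The lowest Ogt iKO library was well above the highest control, and the Ogt iKO libraries differed from each other. The log2 fold change was 2.74 (SE 0.388), and the ratio of summed counts, scaled to library size, was 6.75 (95% exact conditional interval 3.84 to 12.8, counting error only, as for the other ratios). The gene lies at chr4:90218820-90225687 on the plus strand (GRCm38). Its transcript has 2 relatives at 80% identity or more over at least 50% of its length, Gm12633 and the pseudogene Zfp353-ps, the latter 95.2% identical over 1650 bases, so its counts depend on how reads shared with them were treated.

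Tmem92 encodes a predicted membrane protein. It had 190 and 177 counts in Ogt iKO and 50 and 37 in control, or 11.3 ± 0.210 against 2.82 ± 0.579 CPM. The 2 Ogt iKO libraries were close to each other, and the groups did not overlap. The log2 fold change of 1.99 (SE 0.197) was the lowest of the 5 fitted genes, and the ratio of summed counts was 3.99 (3.15 to 5.10). The gene lies at chr11:94777217-94782703 on the minus strand and had no relative at 80% identity over at least 50% of its transcript.

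Spz1 encodes a basic helix-loop-helix leucine-zipper factor named for its place in spermatogenesis. It had 21 and 46 counts in Ogt iKO and 3 and 1 in control, or 2.10 ± 1.23 against 0.130 ± 0.0910 CPM. The second Ogt iKO library was 2.41 times the first in CPM, the widest gap between Ogt iKO replicates among the 6 genes. The log2 fold change was 3.92 (SE 0.684), and the ratio of summed counts, 15.8, had an interval of 5.90 to 59.8 because the controls held 4 counts in all. Spz1 lies at chr13:92574631-92576232 on the minus strand, and no other gene's transcript was found to align to its own.

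AF067061 had 51 and 67 counts in Ogt iKO and 0 and 1 in control, or 3.65 ± 0.945 against 0.0326 ± 0.0461 CPM. It was near or at 0 in both controls and well above the floor of 3 counts in both Ogt iKO libraries. The ratio of summed counts was 111.5, with an interval of 19.6 to 4441 that a single control count leaves this wide. The fitted log2 fold change of 6.50 (SE 0.622) depended on the control libraries, at 5.64 without control replicate 1 and 8.87 without control replicate 2. The gene lies at chr13:120263095-120264517 on the plus strand. The data go against calling it a gene outside large families: 12 other genes matched its transcript at 80% identity or more over at least 50% of its length, the closest being Tcstv1, a 2-cell-stage gene, 91.9% identical over the whole transcript. Counts of AF067061 are therefore uncertain to the extent that reads were shared with those copies.

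B020004J07Rik, now Pramel17, belongs by name to the Prame-like family of leucine-rich-repeat proteins, which has many members in the mouse, so it too fits the label poorly. It had 129 and 123 counts in Ogt iKO and 15 and 10 in control, or 7.74 ± 0.272 against 0.811 ± 0.224 CPM. The Ogt iKO replicates lay close together, control replicate 1 was 1.49 times control replicate 2 in CPM, and the groups did not overlap. The log2 fold change was 3.24 (SE 0.257), and the ratio of summed counts was 9.53 (6.31 to 15.0). The gene lies at chr4:101834969-101844022 on the minus strand. At the same 80% limit 2 other transcripts matched, of which Gm12800 was 81.3% identical over 1458 bases.

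Sp110 encodes a nuclear body protein of the Sp100 family, whose members respond to interferon. It had 7 and 5 counts in Ogt iKO and 0 and 2 in control, or 0.366 ± 0.0616 against 0.0652 ± 0.0922 CPM. The groups did not overlap, but both controls lay at or under the floor of 3 counts. The ratio of summed counts was 5.67, with an interval of 1.26 to 52.2. Fitted without the filter on low counts, its log2 fold change was 2.35 (SE 1.01) by edgeR, and DESeq2 gave 2.47 (SE 1.92). The gene lies at chr1:85570735-85610850 on the minus strand, within which the span of Sp140 begins. G530012D18Rik, on the other strand, overlaps 392 bases, or 5.78%, of the exons of Sp110, and the strand counted is not given. In addition, 4 other genes matched the transcript of Sp110, with Gm16026 97.6% identical over the whole transcript, so counts of Sp110 are uncertain. Of those relatives, A530040E14Rik had 1 and 8 counts in Ogt iKO and 0 and 0 in control, and C130026I21Rik had 7 and 2 against 1 and 0.

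Levels of different genes were compared per kilobase of exon, as CPM per kb. In control the order from the highest down was Tmem92 at a mean of 1.29, B020004J07Rik at 0.410, Zfp352, Spz1, AF067061 and Sp110. Spz1 (0.0424 to 0.126 CPM per kb in the 2 controls) and AF067061 (0 to 0.0464) overlapped there, as did AF067061 and Sp110. In Ogt iKO the order was Tmem92 at 5.15, B020004J07Rik at 3.92, AF067061 at 2.60, Spz1 and Zfp352 both at 1.36, and Sp110 at 0.0540. Spz1 (0.799 to 1.93) and Zfp352 (1.05 to 1.67) overlapped between libraries. AF067061 was thus below Zfp352 in control and above it in Ogt iKO, while Tmem92 and B020004J07Rik kept the first places.

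Within the groups, 5 of the 6 genes were higher in Ogt iKO replicate 2 than in replicate 1, all except Sp110. Tmem92 (1.03 times in CPM) and B020004J07Rik (1.05 times) were nearly equal, and Sp110, at 7 and 5 counts, had too few to compare. In control, 4 of 6 were higher in replicate 1 than in replicate 2. The share of all genes that did so was not taken, so nothing is read from these counts. Markers of the feeder fibroblasts were higher in Ogt iKO replicate 1 than in replicate 2. The 18 of them summed to 5013 CPM in Ogt iKO replicate 1 and 2272 in replicate 2, against 2550 and 2910 in the controls, with none at 0. Thy1 was at 17.2 ± 11.8 CPM in Ogt iKO and 15.6 ± 0.0532 in control, and Epcam at 284 ± 4.67 and 327 ± 28.8 (SD, n = 2). 5 of the 18 were called higher and 0 lower, with a median log2 fold change of 0.40; all tested genes gave 33.2% higher and 32.0% lower. Tagln, an actin-binding protein of contractile cells, rose by 2.60 (log2), and Acta2, smooth muscle actin, by 1.72, a call lost with robust dispersion (adjusted p = 0.07729). Without Ogt iKO replicate 1, 12 of the 18 fibroblast markers were called lower and 5 higher, and without Ogt iKO replicate 2, 17 were called higher. The log2 fold change of Zfp352 was 3.05 without replicate 1 and 2.36 without replicate 2, and that of Spz1 was 4.44 and 3.14. The part of feeder RNA in the levels of the 6 genes was not tested. Of 13 tested markers of trophectoderm and primitive endoderm, the extraembryonic lineages, 8 rose, 1 fell and 4 were not called, with a median of 1.23, beside all-gene shares of 33.2% higher and 32.0% lower. Keratin 8 (Krt8) had 1537 and 1568 counts in Ogt iKO, compared with 134 and 90 and rose by 3.71, Krt18 by 3.60, Foxa2 by 2.64, Dab2 by 2.37 and Hand1 by 1.5, while Tfap2c fell by 2.28 (log2). The call of Hand1 was lost with DESeq2 (adjusted p = 0.06731) and without control replicate 2 (0.08709). The summed level of that list, all 14 genes, was 464 and 460 CPM against 155 and 140, and its part in the levels of the 6 genes was not tested.

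Lists of related genes, chosen with earlier results of these data known, show what moved beside the 6. Other markers of the 2-cell-like state, most of them members of copied families, had 26 tested genes, of which 23 rose, 0 fell and 3 were not called, with a median log2 fold change of 2.10 against 0.02 for all tested genes, of which 33.2% were higher. Another 7 of the 35 in the tables were listed at 0 in all libraries. Tdpoz1, of a family of TRAF and POZ domain proteins, had 23 and 32 counts in Ogt iKO, compared with 2 and 1 and rose by 4.02 (log2, SE 0.554, adjusted p = 0.0002902). Tcstv3 had 94 and 88 counts against 8 and 5 and rose by 3.70, BC147527 rose by 3.31, Gm20767 by 3.06, Pramef25 by 3.02 and Tcstv1 by 2.64. BC147527, Gm20767, Tcstv1 and Tcstv3 are also among the relatives of AF067061, so their counts and its own could share reads, which was not measured.

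**Figure D3:**
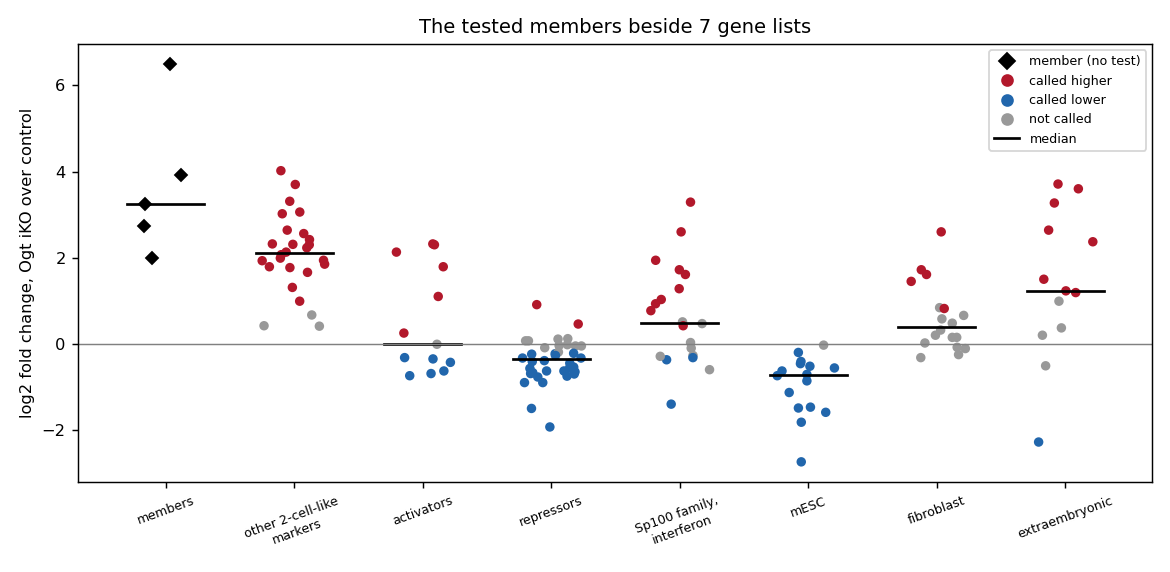
Fitted log2 fold change of Ogt iKO over control for the 5 fitted genes (black diamonds, no test) and for the tested genes of 7 lists (circles, red called higher, blue called lower, grey not called), with bars at the medians. The 5 genes have a median of 3.24, the other 2-cell-like markers 2.10 and the mESC markers -0.73.

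Of the 13 tested factors that switch on the 2-cell-like programme, 6 were called higher, 6 lower and 1 not called, with a median of -0.01. Over all tested genes, 33.2% were called higher and 32.0% lower with a median of 0.02. Of the 6 factors called higher, 4 (Dux and the 3 Zscan4 genes) also stand in the list of other 2-cell-like markers, and the Zscan4 genes are copies of one family, so these counts are not independent. Zscan4c rose by 2.32, Zscan4d by 2.30 and Zscan4f by 1.79, and Gata2, a zinc-finger factor, by 1.10. Klf5 fell by 0.74 and Nr5a2, an orphan nuclear receptor, fell by 0.69 (log2). Dux, the gene of the starting factor, was chosen for mention after its values were seen. It had 19 and 19 counts in Ogt iKO, compared with 2 and 6 in control and rose by 2.13 (SE 0.498, adjusted p = 0.005209). It was not called by DESeq2 (adjusted p = 0.07396) or without control replicate 1 (adjusted p = 0.05539), and its call was kept in the other 9 of 11 alternatives. Dux is a repeated gene, so its count is uncertain.

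Factors known to hold the programme or MERVL silent mostly fell: of 36 tested, 24 were lower, 2 higher and 10 not called, with a median of -0.36. All tested genes gave 32.0% lower and 33.2% higher. A gene called lower stands both in this list and among the mESC markers. The fibroblast and extraembryonic lists share a gene that was not called, so counts of these lists are not fully independent. Scaled by library totals only, 19 repressors were lower and 7 higher. Chaf1b, a subunit of the CAF-1 chaperone, had 838 and 837 counts in Ogt iKO, compared with 3075 and 2955 and fell by 1.93 (log2). Tet2 fell by 1.5 and Tet1 fell by 0.90 (log2), both of which encode enzymes that oxidise methylcytosine. Uhrf1, needed to keep DNA methylation through replication, fell by 0.90 and Ncl, nucleolin, fell by 0.77, whereas E2f6, a repressor of germline genes, rose by 0.91.

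Among the relatives of Sp110 in name and the interferon genes, 10 of 20 tested rose, 3 fell and 7 were not called, with a median of 0.49, against 33.2% higher and 32.0% lower over all tested genes. Gbp2, an interferon-induced GTPase, had 1542 and 1490 counts in Ogt iKO, compared with 143 and 150 and rose by 3.29. The antiviral enzyme Rsad2 rose by 2.60, the nucleic acid sensor Zbp1 by 1.72 and Oasl2 by 1.61, and Oas1a fell by 1.40 (log2). Sp100, the founding member of the nuclear body family, had 36 and 14 counts against 8 and 4 and rose by 1.94 (adjusted p = 0.01265). Its call was lost with DESeq2 (adjusted p = 0.06843), without Ogt iKO replicate 1 (0.09272) and without control replicate 2 (0.08206). Sp140 was not tested, at 21 and 8 counts against 5 and 2. Sp100 and Sp140 were thus higher in the Ogt iKO library with more fibroblast transcripts. In the controls both were higher in replicate 1, which had fewer fibroblast transcripts than replicate 2 (2550 against 2910 CPM). The part of feeder RNA in their levels was not tested. Sp110, at 7 and 5 counts in Ogt iKO, had too few counts to compare these libraries.

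The genes around the 6 were taken within 100 kb on each side. Of 16 such genes, 14 were tested, and 12 were called higher, 1 lower and 1 not called, with a median log2 fold change of 1.86, where all tested genes had 33.2% higher and 32.0% lower. Some are themselves 2-cell-like markers of copied families, so the list is not independent of the others. AF067061 lies among relatives: BC147527 at 35716 bases, Tcstv3 at 52345 and Gm21818 at 89203, which rose by 3.31, 3.70 and 2.86. Around B020004J07Rik, C130073F10Rik at 45998 bases rose by 1.65, and Gm12794, a relative of the gene at 96385 bases, by 1.85. Lepr, the leptin receptor, at 19617 bases, had 33 and 29 counts in Ogt iKO, compared with 4 and 13 and rose by 1.77 (adjusted p = 0.008008). Its call was lost with DESeq2 (adjusted p = 0.05508) and without control replicate 1 (0.05505).

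Spz1 stood between genes that are no 2-cell-like markers of the lists and that were also higher. Serinc5, a membrane protein that restricts retrovirus particles, at 34906 bases, had 1235 and 1102 counts in Ogt iKO, compared with 286 and 250 and rose by 2.04 (SE 0.0900, adjusted p = 1.06e-06). Zfyve16, an endosomal protein at 43821 bases on the other side, had 1049 and 828 counts against 381 and 334 and rose by 1.31 (adjusted p = 1.476e-05). Fam151b, farther out at 90600 bases, rose by 1.92. All 3 tested genes within 100 kb of Spz1 were thus called higher, against 33.2% of all tested genes.

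Around Tmem92, AA623943 at 30096 bases had 73 and 71 counts in Ogt iKO, compared with 22 and 19 and rose by 1.73 (adjusted p = 0.0003524). Gm11545 at 16020 bases on the other side, with 29 and 15 counts against 18 and 8, was not called. Gm11544 at 62128 bases rose by 1.88 on 12 and 12 counts against 4 and 2 (adjusted p = 0.01242), a call lost with DESeq2 (0.2014) and without control replicate 2 (0.1316), and Xylt2, the single neighbour called lower, fell by 0.63 (log2).

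Sp110 had Sp100 at 39098 bases, described with the interferon genes, and on its other side Slc16a14 at 635454 bases was not called (adjusted p = 0.0581). Zfp352 had no gene within 100 kb. Its nearest tested genes were Dmrta1 at 524054 bases, which rose by 1.89 on 14 and 18 counts against 3 and 5 (adjusted p = 0.00815), and Elavl2 at 985846 bases, not called. The call of Dmrta1 was lost with DESeq2 (adjusted p = 0.133) and without control replicate 1 (0.08085).

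**Figure D4:**
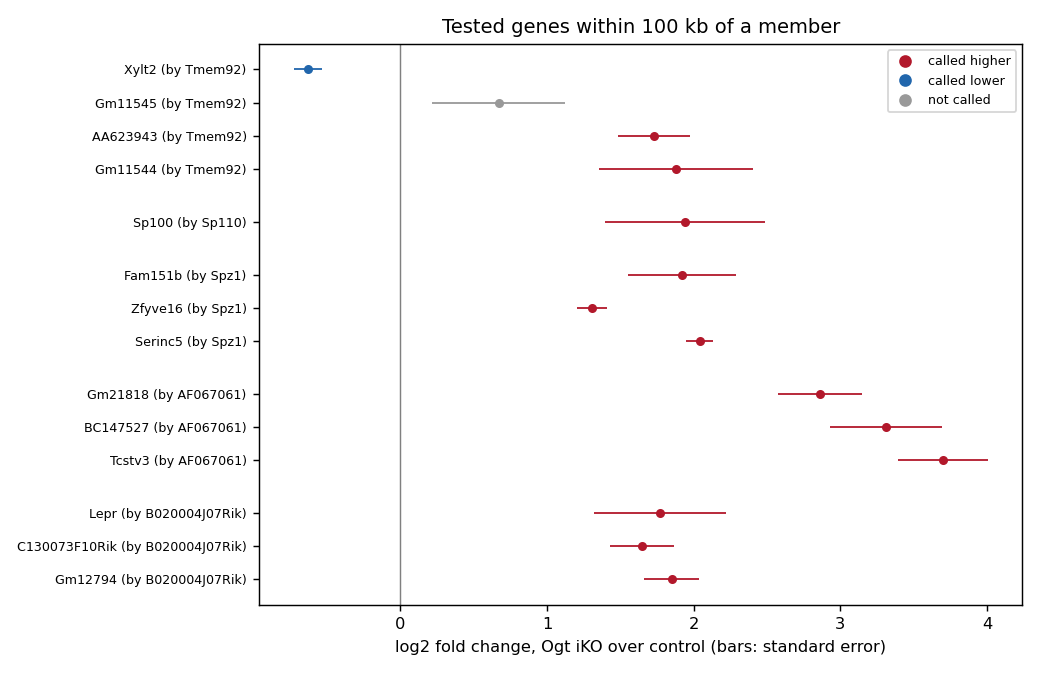
Fitted log2 fold change of Ogt iKO over control, with its standard error as a bar, for the 14 tested genes within 100 kb of one of the 6, grouped by the member each is near. Red marks genes called higher, blue lower and grey not called. All tested neighbours of Spz1, AF067061 and B020004J07Rik are red, and those of Tmem92 are mixed.

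The genes nearest to the median profile of the 5 fitted genes over the 4 libraries were found by the distance of their centred log2 CPM from it. The 5 genes themselves lay at 0.425 (Zfp352), 0.550 (Spz1), 0.566 (B020004J07Rik), 0.919 (Tmem92) and 2.05 (AF067061), all farther from it than the genes named next. The nearest other genes were Ccdc68 (distance 0.230), Dll4 (0.269), AA792892 (0.270), Sp5 (0.301) and 4933403O08Rik (0.306), given as a description. Dll4, a ligand of Notch receptors, had 17 and 25 counts in Ogt iKO and 2 and 1 in control. Sp5, a target and effector of Wnt signalling, had 130 and 178 in Ogt iKO and 28 and 19 in control.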

How the data were processed

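Bulk RNA libraries were grouped by their titles into Ogt iKO and control, with 2 replicates each. The authors deposited raw counts per gene symbol for each library, with 25239 symbols and 0 rows that name no gene. The submitters' processing notes name STAR, Picard and the build mm10; their versions, the annotation and the strand counted are not given in the sources used here. Per the labels' protocols, a stranded Illumina mRNA kit was used.

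Counts were tested with edgeR 4.0.16 in R 4.3.3 (TMM factors, filterByExpr, quasi-likelihood fit and test, all 4 libraries, no covariate), with Benjamini-Hochberg adjustment over 14525 genes and calls at an adjusted p under 0.05. The fit was tested on simulated data. CPM uses TMM-scaled library sizes, fold changes are Ogt iKO over control, and intervals of summed-count ratios are exact and conditional. The replicate numbers were not treated as pairs: the deviations of same-numbered libraries from their group means had a correlation across genes of 0.0859, over 2 pairs. Positions and start windows are from RefSeq GRCm38.p6, the assembly that mm10 names, and exon lengths and transcripts from GENCODE. Windows and transcripts were aligned with BLAST 2.17.0. Members' relatives were to be found by protein, but transcripts were used instead because no protein table was used here.

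The members and gene lists were chosen with earlier results of these data known. Of the 7 genes listed, 1 and the results that need it are not reported here. The text names, besides the other 6 genes and Ogt, from each list at most 6 called genes, those that changed most at a mean log2 CPM of 0 or above (and any that had no more than 3 counts throughout one group and 20 or more throughout the other), the nearest tested gene on each side of each member, called neighbours of at least 2-fold, and the 5 genes nearest to the members' median profile. Genes named for their start windows or transcripts, Dux, Sp140, Thy1, Epcam and Xylt2 fall outside that rule and were chosen after their values were seen. Alternatives were other scaling (RLE size factors, library totals only), DESeq2 1.42.0, other filters, the replicate block, robust dispersion, an adjusted p under 0.01, a prior count of 2, other window and distance limits and leaving out each library.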

Additional observations from a re-analysis of the deposited data

How the results depend on the processing

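None of the 5 fitted genes changed direction under any alternative run. Little is read from that, because some were picked for their rise and all had both Ogt iKO libraries above both controls. Their log2 fold changes ranged from 2.36 to 3.05 for Zfp352, 1.79 to 2.21 for Tmem92, 3.11 to 4.83 for Spz1 and 2.98 to 3.55 for B020004J07Rik; AF067061 ranged from 4.57 with a prior count of 2 to 8.87 without control replicate 2. Over all genes, the calls ranged from 3460 higher with DESeq2 to 6116 with library totals only, and from 3282 lower with library totals only to 4723 with robust dispersion. Library totals moved the share of higher among all calls from 50.9% to 65.1% and the all-gene median (log2) to 0.193, and called 7 repressors higher and 19 lower. With the replicate block, 4922 genes were called higher and 4719 lower; the numbers share no stated source, so this is not a paired design.

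Robust dispersion left 3 fibroblast markers called higher. Leaving out 1 library moved the fibroblast list most, from 5 to 17 higher, with the 17 without Ogt iKO replicate 2, and from 0 to 12 lower, with the 12 without Ogt iKO replicate 1. Among neighbours, 7 were higher and 0 lower within 50 kb, and 16 were higher and 5 lower within 200 kb. The cause of these shifts was not tested, except that other distances take in other genes. The number of windows that aligned to a member's moved with the limits, from 0 to 17 for Zfp352, from 17 to 45 for Sp110 and from 1 to 32 for AF067061 at 75% over 50 bases, and to 0 for Sp110 at 85% over 200 bases. Counts of 3 or fewer in both controls limit Sp110, Spz1 and AF067061.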
